A study of Mus musculus with 2 samples.

Results

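The 9 genes described here are grouped for their link to the glycan layer on the luminal face of the bladder lining. They encode the mucins Muc1, Muc4, Muc15 and Muc20, the syndecans Sdc1 and Sdc4, and the hyaluronan synthases Has1, Has2 and Has3, which are enzymes. The genes were chosen by name, 9 of 21938 protein-coding genes in the annotation used, and the place of their products in this tissue was not measured. Chromatin accessibility at these genes was measured by DNase-seq, in which nuclei are cut lightly with deoxyribonuclease I so that open DNA is enriched among the sequenced ends. The tissue was whole urinary bladder from 2 female B6CASTF1/J mice, first-generation hybrids of C57BL/6J and CAST, aged 36 days and numbered 5 and 6 in the labels. They are called replicate 1 and replicate 2 here. The animals form 1 group with no treatment, transgene, control or second condition, so no test between groups exists, and each value below carries only the spread between 2 animals. Both share one donor record, which names the strain, while their biosamples differ.

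Mucins are long proteins whose repeated domains carry dense O-linked sugar chains, and the membrane-bound mucins among them stand on the outer face of epithelial cells. Syndecans are membrane proteins that carry heparan sulfate chains, bind growth factors and matrix through those chains, and are shed from the cell by proteases. Hyaluronan is an unsulfated sugar polymer that has no protein core and is made at the plasma membrane by the 3 synthases. In the bladder, the glycan layer is known as a barrier between urine and the urothelium, the epithelium that lines the organ.

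For each animal the deposited files list peaks with a height, footprints (short stretches inside open chromatin that are protected from cutting) and stretches of bases whose local cut rate stood out at a false discovery rate of at most 0.05. The larger of the 2 peak lists held 117773 peaks in replicate 1 and 102671 in replicate 2, with 280105 and 247833 footprints. The sources used here give no read totals, so the depth is unknown, and no counting interval is given. Heights at regions found in both animals were lower in replicate 2 by a median of -0.37 on the log2 scale (SD 0.42 over 80169 regions), and differences between the animals are given relative to that median. A height of 0 means that no peak was listed. Marker genes of the labelled tissue were open at all 8 urothelial genes examined, among them Upk1a (2.19 and 1.05), Upk2 (3.32 and 1.91), Upk3a (3.23 and 1.48) and Krt5 (1.71 and 0.629). Of 5 smooth muscle genes 4 were open, including Acta2 (0.703 and 0.875) and Myh11 (2.82 and 1.48), and so were 3 of 4 fibroblast, 2 of 3 endothelial and 1 of 3 leukocyte genes. The liver gene Alb had no open start, while 1 inner start of the pancreatic gene Ins2 was open (1.15 and 0.654). Of all protein-coding genes 63.0% were open, so these counts are a weak check of the tissue. In whole tissue, fewer cells of a type and less accessibility per cell cannot be told apart.

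The reference sequences that carry the results follow, all from RefSeq GRCm38.p6 (the build called mm10), 5′ to 3′ on the strand of the gene. The animals carry 1 CAST genome each, so these letters are those of the C57BL/6J reference. In the first 8 sequences, capitals mark bases that lie in footprints of both animals, and annotated UTR bases are left out. The first 3 show the open starts of the syndecans and the highest region in an intron of Sdc1, on the plus strand at chr12:8771241-8771322 for the Sdc1 start, on the minus strand at chr2:164443187-164443380 for the Sdc4 coding start, and on the plus strand at chr12:8782101-8782320 for the intron.
Sdc1 start: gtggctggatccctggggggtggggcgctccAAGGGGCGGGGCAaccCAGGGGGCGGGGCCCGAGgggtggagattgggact
Sdc4 coding start: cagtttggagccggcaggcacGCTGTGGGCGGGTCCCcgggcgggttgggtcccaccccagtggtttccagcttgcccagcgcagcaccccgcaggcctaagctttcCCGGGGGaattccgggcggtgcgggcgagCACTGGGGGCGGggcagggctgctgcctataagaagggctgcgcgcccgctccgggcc
Sdc1 intron: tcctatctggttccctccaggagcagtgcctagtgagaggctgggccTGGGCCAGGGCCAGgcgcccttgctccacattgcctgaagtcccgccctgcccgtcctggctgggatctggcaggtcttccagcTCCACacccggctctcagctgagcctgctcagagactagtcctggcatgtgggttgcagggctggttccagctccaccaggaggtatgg
The next pair shows the hyaluronan synthases, at the inner starts of Has3 (plus strand, chr8:106870701-106870820) and at the highest region of Has2, which lies inside the gene and not at its start (minus strand, chr15:56692301-56692540).
Has3 inner starts: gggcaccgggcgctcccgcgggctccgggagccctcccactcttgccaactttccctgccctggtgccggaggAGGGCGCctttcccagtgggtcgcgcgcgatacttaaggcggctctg
Has2 intron: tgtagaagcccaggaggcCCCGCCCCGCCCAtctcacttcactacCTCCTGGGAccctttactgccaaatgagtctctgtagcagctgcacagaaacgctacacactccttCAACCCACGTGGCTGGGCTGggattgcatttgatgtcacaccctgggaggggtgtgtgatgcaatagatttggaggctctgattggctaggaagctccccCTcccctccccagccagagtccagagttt
Of the mucins with closed starts, Muc1 and Muc20 are shown by the nearest region upstream of the gene (Muc1 plus strand, chr3:89228221-89228420, and Muc20 minus strand, chr16:32803381-32803540). Muc4 is shown by a region past its end, not the nearest to its start but the only one in its surroundings found in both animals (plus strand, chr16:32784946-32785180).
Muc1 upstream region: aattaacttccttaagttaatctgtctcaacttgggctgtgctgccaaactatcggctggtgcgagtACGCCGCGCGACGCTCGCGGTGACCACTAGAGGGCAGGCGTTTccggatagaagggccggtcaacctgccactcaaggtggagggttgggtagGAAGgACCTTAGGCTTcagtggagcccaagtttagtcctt
Muc20 upstream region: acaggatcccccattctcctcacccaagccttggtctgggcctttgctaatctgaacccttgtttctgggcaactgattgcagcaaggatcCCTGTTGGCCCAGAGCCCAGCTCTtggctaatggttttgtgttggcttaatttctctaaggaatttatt
Muc4 downstream region: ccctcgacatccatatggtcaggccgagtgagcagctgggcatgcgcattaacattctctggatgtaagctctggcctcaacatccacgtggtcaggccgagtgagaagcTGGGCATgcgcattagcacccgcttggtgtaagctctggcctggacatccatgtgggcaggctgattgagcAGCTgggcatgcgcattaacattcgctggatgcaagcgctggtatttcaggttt
The last is the stretch just before the closed start of Muc1 (plus strand, chr3:89228806-89229055, from the RefSeq promoter table, which held 6 of the 9 genes). It held no footprint, and its capitals mark matches to the motifs searched.
Muc1 before the start: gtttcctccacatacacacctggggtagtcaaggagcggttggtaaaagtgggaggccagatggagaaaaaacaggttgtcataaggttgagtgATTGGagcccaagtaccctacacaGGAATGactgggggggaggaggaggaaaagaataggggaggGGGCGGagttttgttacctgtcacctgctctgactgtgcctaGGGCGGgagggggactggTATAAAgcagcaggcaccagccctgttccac

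The syndecans had the highest starts, the hyaluronan synthases low ones or none, and 3 of the 4 mucins no open start. A start was called open when a peak of the larger list touched the 200 bp on either side of it in both animals. By this rule 5 of the 9 genes were open (Muc15, Sdc1, Sdc4, Has2 and Has3), against 63.0% of all protein-coding genes. The most upstream start was open at 4 of the 9, against 55.6% of all genes. Of the 27 separate annotated starts of the 9 genes 13 were open, against 47.4% of all starts, so these counts lie near the background. The 13 open starts were also the 13 with a listed false discovery rate in both animals, against 51.1% of all starts. Among the open genes the median start height was 1.73 in replicate 1 and 1.38 in replicate 2, below the medians of 5.09 and 3.64 over all open protein-coding genes.

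**Figure D1:**
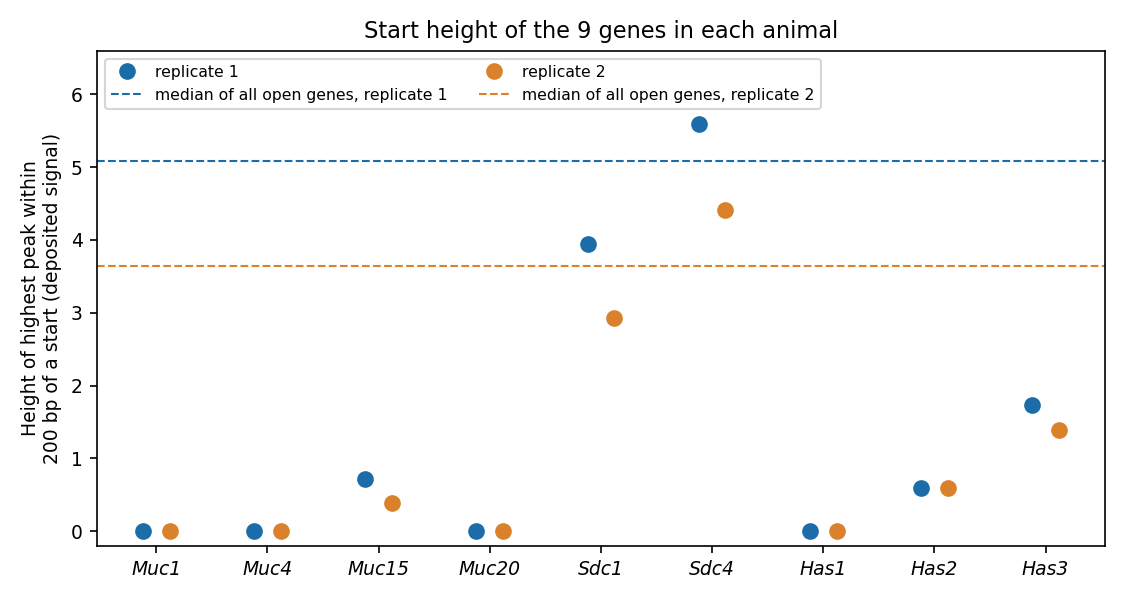
Height of the highest peak within 200 bp of an annotated start (y axis, the authors' deposited signal) for each of the 9 genes (x axis), 1 point per animal, with dashed lines at the median of all open protein-coding genes in each animal. Sdc4 lay above the line in both animals (5.59 and 4.41), Sdc1 (3.95 and 2.93) and the other open genes lay below it, and Muc1, Muc4, Muc20 and Has1 had no peak.

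Muc1 encodes a widely expressed epithelial membrane mucin. It is annotated at chromosome 3, 89229057 to 89233381, on the plus strand, with 3 separate starts, of which 1 is protein coding. All 3 starts were at 0 in both animals, and no stretch at a listed false discovery rate lay within 200 bp of any of them. The nearest peak ended 637 bp upstream of the coding start in replicate 1 and 617 bp upstream in replicate 2, with heights of 4.84 and 4.0 (4.42 ± 0.59, SD, n = 2). That height lies between those at the open starts of Sdc1 and Sdc4. Among all peaks of each animal it sits at percentiles 92.5 and 93.1, the Sdc1 start at 90.4 and 89.5 and the Sdc4 start at 93.7 and 94.1. A footprint in it, found in both animals, held a match to the CTCF motif, the binding sequence of a factor known for its role at domain boundaries. With a window of 1 kb around a start, Muc1 counted as open through this region, and 6 of the 9 genes then did, against 66.8% of all genes.

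The bases before the closed Muc1 start held a TATA box match (TATAAA) whose first base lay at -32, and GC box matches (GGGCGG) at -50 and -92. TATA box matches occurred in 12.4% and GC box matches in 32.7% of the 32851 RefSeq promoters over the same 250 bases. The stretch also held a CCAAT match (CCAAT, read on the other strand) at -157, found in 33.8% of promoters, and a TEAD match (GGAATG) at -133, found in 12.6%. Of the other genes in the promoter table, Muc4 had 1 TATA box match and no GC box, Sdc1 had 3 and Sdc4 had 4 GC boxes and no TATA box, and Muc20 and Has1 had neither motif.

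Around Muc1 the chromatin was open mainly at other genes. In its domain, as the gene body with flanks of 20 kb is called here, 10 peaks were listed in replicate 1 and 13 in replicate 2, which merged into 14 regions, 9 of them in both animals. Of these 14 regions 7 lay at starts of other genes: Mtx1 and Thbs3 upstream, the microRNA gene Mir92b just before Muc1, and Trim46 downstream. The highest, at the start of Mtx1, reached 7.48 and 4.39. None of the 14 regions lay within the gene body of Muc1, and for 1 of them Muc1 was the gene with the nearest annotated start.

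Muc4 encodes a large membrane mucin that can pair with an ErbB family receptor, and Muc20 a smaller membrane mucin. They are neighbours that run toward each other on chromosome 16 and overlap at their ends, Muc4 from 32735886 to 32782391 on the plus strand and Muc20 from 32777419 to 32797435 on the minus strand. All 7 starts of Muc4 and the single start of Muc20 were at 0 in both animals with no listed false discovery rate nearby. From the most upstream Muc4 start the nearest peak lay 4052 bp away in replicate 1, with a height of 0.371, and 38522 bp away in replicate 2, with a height of 0.595. The Muc4 domain of 86.5 kb held 4 peaks in replicate 1 and 1 in replicate 2, at percentiles 32.8 and 15.7 of all protein-coding genes for peaks per 10 kb. Muc20 was flanked by stronger regions, all of them upstream of its start: the nearest, 5906 bp (replicate 1) and 5946 bp (replicate 2) away, reached 3.45 and 2.67, and its neighbour 2.78 and 2.33. A region at -15.7 kb, with 3.58 and 2.73, held a CTCF match in a footprint of both animals, and its nearest start belongs to Smbd1.

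The only region in both animals that lay in the Muc4 domain was shared with the Muc20 domain, in an intron of Muc20, and had heights of 0.868 and 0.501. Its printed sequence is repetitive: shifted by 74 bp against itself, 77.6% of the bases were identical, whereas no other printed sequence exceeded 45.8% at its best shift. The sources used here do not say how reads from such repeats were placed, and the part of the repeat in this height was not tested.

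Muc15 encodes a membrane mucin first described in milk, and was the only mucin of the 4 with an open start. It lies at chromosome 2, 110721340 to 110739527, on the plus strand. Its 3 starts lie within 308 bp of each other and share 1 peak of height 0.710 in replicate 1 and 0.391 in replicate 2 (0.55 ± 0.23, SD, n = 2). These heights are at percentiles 6.06 and 1.70 among open protein-coding genes. The lowest false discovery rate there was 1.29e-07 in replicate 1 and 0.000891 in replicate 2. The smaller peak list kept this peak in replicate 1 and not in replicate 2. The only other region of its domain, 11.1 kb upstream, was higher, at 1.59 and 0.586. The peak at the start lies wholly in annotated UTR, and its sequence is not shown.

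Sdc1, the syndecan known as a main heparan sulfate carrier of epithelial cells, was open at all 5 annotated starts. It lies at chromosome 12, 8771323 to 8793715, on the plus strand. The first 3 starts shared a peak of 3.95 in replicate 1 and 2.93 in replicate 2 (3.44 ± 0.72, SD, n = 2), at percentiles 40.9 and 40.6 of the start heights of all open genes. A long noncoding RNA gene on the opposite strand, Gm4755, starts 142 bp from the first Sdc1 start, so the peak cannot be assigned to one of the 2 genes. Within 200 bp of the Sdc1 starts lay 7 footprints in replicate 1 and 9 in replicate 2. The GC boxes at -48 and -31 both lay wholly inside footprints of both animals, as the capitals in the printed start show.

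Sdc1 also held open regions through its introns. All 13 regions of its domain had Sdc1 as the gene with the nearest annotated start, and 9 were in both animals. The region at the start also touches the start of Gm4755, and such ties were given to the protein-coding gene. The highest, in an intron at 10.9 kb, reached 5.42 in replicate 1, above the start, and 2.28 in replicate 2, below it. Its printed sequence held a match to the KLF CACCC box (GGGTGTG, read on the other strand) that a footprint of both animals touched. Other intronic regions at 7.03 kb (3.45 and 1.28), 11.4 kb (2.45 and 1.00) and 15.3 kb (2.21 and 0.798) were likewise higher in replicate 1. A region past the end of the gene, at 40.5 kb, reached 4.41 and 2.50.

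Sdc4, a syndecan of focal adhesions that is expressed in most tissues, had the highest start of the 9 genes. It lies at chromosome 2, 164424247 to 164443887, on the minus strand. Its coding start had heights of 5.59 and 4.41 (5.00 ± 0.84, SD, n = 2), at percentiles 53.9 and 60.3 among open genes. Its other annotated start, that of a noncoding transcript 701 bp further upstream, was at 0 in both animals, although it is the most upstream start of the gene. Before the coding start the printed sequence held 4 GC box matches, of which those at -168 and -52 lay wholly in footprints of both animals and those at -156 and -74 did not. GC box matches occurred in 7.80% and 8.01% of all footprints of the 2 animals.

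The Sdc4 domain held the most peaks of the 9, with 17 in replicate 1 and 20 in replicate 2 (2.85 and 3.35 per 10 kb), at percentiles 97.7 and 99.2 of all protein-coding genes. They merged into 23 regions, 13 of them in both animals. Beside the start, an intronic region 260 bp from it had 2.03 and 2.12, and the regions upstream at -11.2 kb (4.18 and 2.97) and -12.03 kb (2.38 and 1.78) lay closer to starts of Sys1. The highest region of the domain, 9.77 and 5.47, was at a start of Gm20458. Inside the gene, 4 intronic regions between 3.25 and 6.74 kb, with heights of 0.995 to 1.76 in replicate 1, had no peak in replicate 2.

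**Figure D2:**
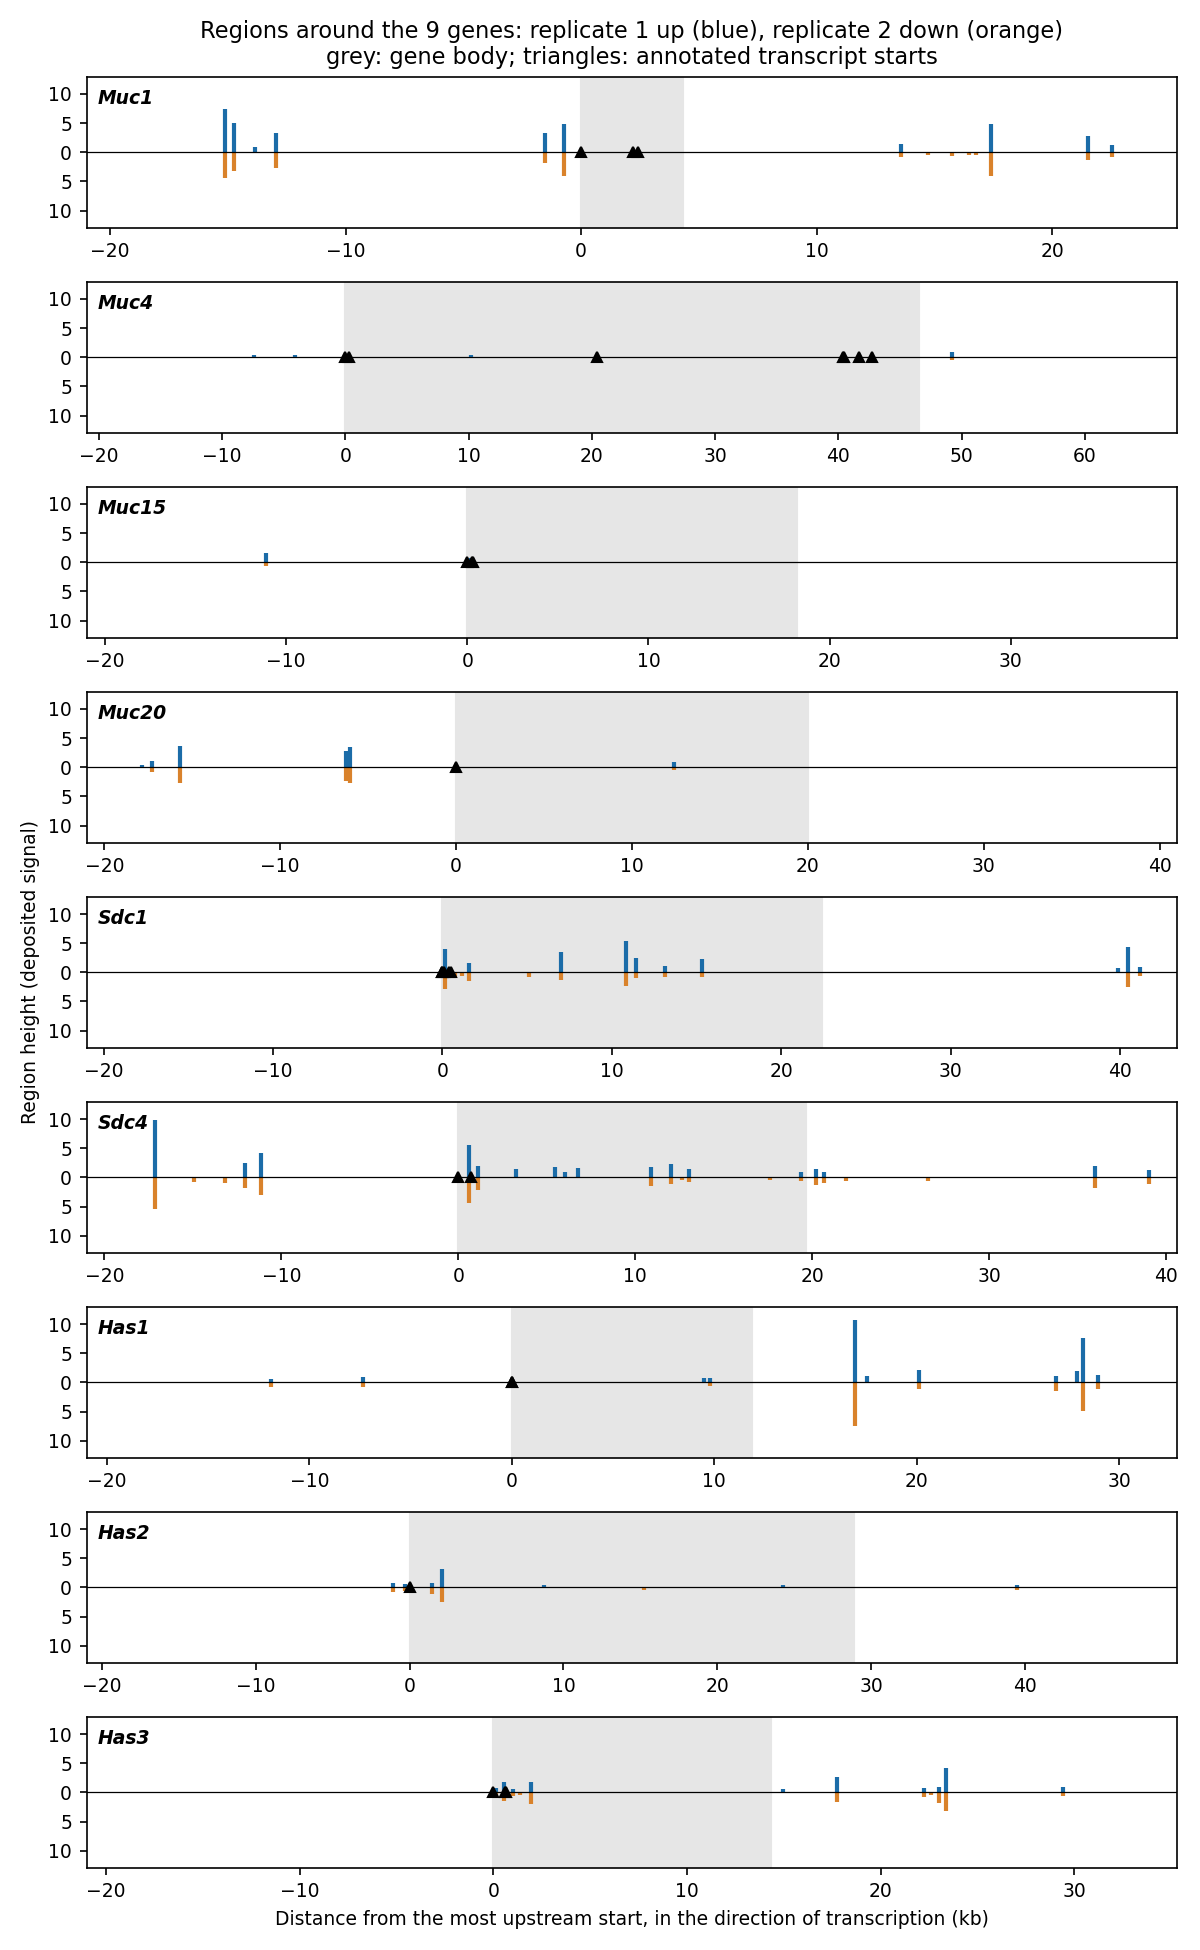
Height of each region (y axis, deposited signal, replicate 1 upward and replicate 2 downward) against the distance of its midpoint from the most upstream start in kb (x axis), with 1 panel per gene, the gene body in grey and annotated starts as triangles. Sdc1 and Sdc4 held regions through their introns, and Muc4 and Muc15 held at most 4 peaks per animal. The highest bars of the Muc1, Sdc4, Has1 and Has3 panels stood at starts of other genes.

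Has3, the synthase most often described in epithelial cells, was open at all 3 starts, and Has2, the synthase that is essential in the embryo and common in stromal cells, at its single start. Has3 lies at chromosome 8, 106870242 to 106884566, on the plus strand. Its most upstream start had 0.758 and 0.747, and its inner starts, 594 and 649 bp downstream, shared a peak of 1.73 and 1.38 (1.56 ± 0.24, SD, n = 2). The inner peak is at percentiles 19.8 and 19.3 among open genes. A region 1.93 kb into the gene was slightly higher than any of its starts, at 1.83 and 2.06. A footprint of both animals at 17.8 kb, past the end of the gene, held a CTCF match, in a region of 2.63 and 1.66. The 4.17 and 3.19 at 23.4 kb belonged to the start of Chtf8.

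Has2 lies at chromosome 15, 56665627 to 56694539, on the minus strand. Within 200 bp of its start the highest peak had 0.592 and 0.595 (0.593 ± 0.002, SD, n = 2), at percentiles 4.12 and 5.30 among open genes. In replicate 1 that peak belonged to a region 102 bp upstream of the start. The region at the start itself had 0.339 and 0.595, so the animals differed more there than the SD shows. In replicate 1 the smaller peak list held no peak there and no peak covered the start base itself, so the open call ended under both of these settings. The highest region of its domain lay 2.09 kb inside the gene with 3.08 and 2.56, above the start in both animals. Overlapping GC box matches and an E-box match (CACGTG) in the printed sequence of that region lay wholly in footprints of both animals. E-box matches occurred in 0.879% and 0.825% of all footprints. The start of the antisense transcript Has2os lies 952 bp from this region and 112 bp from another one, so the neighbourhood holds starts of both strands.

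Has1, the third synthase, was closed. It lies at chromosome 17, 17843323 to 17855205, on the minus strand, and both its starts were at 0 in both animals with no listed false discovery rate. The nearest peak lay 7276 bp upstream of the first start in replicate 1 and 7221 bp in replicate 2, at 0.876 and 0.764. The Has1 domain still held 13 and 10 peaks, at percentiles 95.9 and 92.6 of all genes. Of its 11 regions 4 lay at starts of Spaca6, and the highest of these had 10.8 and 7.51. For 2 of the 11 regions Has1 was the gene with the nearest start, so most of the peaks counted near it lay closer to starts of other genes.

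Across the 9 domains together, 81 peaks were listed in each animal. They made 93 separate regions, of which 61 (65.6%) were found in both animals, against 60.3% of all regions, and 16 were found in each animal alone. The regions found in 1 animal reached at most 2.02. By place, 24 of the 93 regions lay in introns of the genes, 9 within 200 bp of their starts, 4 in their exons, 17 at starts of other genes, 16 upstream and 23 downstream. The region shared by the Muc4 and Muc20 domains was counted as downstream of Muc4, although it also lies in an intron of Muc20. The genes differed from each other in the share of regions nearest to their own start, which was 13 of 13 at Sdc1, 12 of 23 at Sdc4, 5 of 12 at Has3, 3 of 9 at Has2, 2 of 11 at Has1, 1 of 14 at Muc1, 0 of 6 at Muc20, 3 of 4 at Muc4 and 2 of 2 at Muc15. Ties were given to the protein-coding gene, as at the Sdc1 start with Gm4755. The median number of peaks per 10 kb over the 9 domains was 1.76 and 1.92, against 0.768 and 0.672 over the domains of all protein-coding genes.

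Most regions in Sdc1 were lower in replicate 2 and those in Has2 higher, relative to all regions. Of the 61 regions in both animals 5 (8.20%) differed by more than 2-fold after the median shift, against 1.90% of all regions. Among regions with a mean height under 1 it was 1 of 19, against 2.59% of all such regions. Of the 5, those in Sdc1 introns lay at 7.03 kb (-1.05 on the log2 scale, replicate 2 minus replicate 1) and 15.3 kb (-1.09). The upstream Muc15 region (-1.07) was another. The others were the region at the Has2 start (1.18, with 0.339 and 0.595) and one at the Chtf8 start in the Has3 domain (1.41, with 0.892 and 1.83). Within Sdc1, 5 of the 6 intronic regions in both animals were relatively higher in replicate 1, while the start lay at -0.06 and the region at 1.60 kb at 0.29. At Has2 all 6 regions in both animals were relatively higher in replicate 2 (0.11 to 1.18), and at Has3 all 4 within the gene or at its starts were (0.05 to 0.54). The highest Has2 region (3.08 and 2.56) lay at 0.11, and the others were weak, reaching at most 0.718 and 1.10. The direction of these differences was not compared with that at all regions of like height. Over all 61 regions the median was -0.01 (SD 0.52).

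Most urothelial markers were relatively lower in replicate 2 too. Of the 8 urothelial genes 7 had a start relatively higher in replicate 1, and none was at 0. The same share over all open starts was not computed, and the shift was taken over all regions, not over starts. Over all open protein-coding genes the median start height was 5.09 in replicate 1 and 3.64 in replicate 2. A lower start in replicate 2 is thus not particular to the urothelial genes. The summed start height of the 8 urothelial genes was 19.7 in replicate 1 and 10.3 in replicate 2, which is -0.57 on the log2 scale after the median shift. The sum over the 4 fibroblast markers was 6.24 and 5.18 (0.11 after the shift), with Lum at 0 in both animals. That of the 5 smooth muscle markers was 5.87 and 4.25 (-0.09), with Actg2 at 0, and the 3 endothelial markers summed to 3.52 and 1.49 (-0.87). The endothelial sum includes a gene with a peak in replicate 1 only, and the 2 genes open in both animals lay at -0.50 and -0.78. The 3 leukocyte markers summed to 0.561 and 0.459, with Ptprc and Cd3e at 0. The pancreatic gene Ins2 was relatively lower in replicate 2 as well (-0.44). The part of these differences in those at Sdc1, Has2 and Has3 was not tested.

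**Figure D3:**
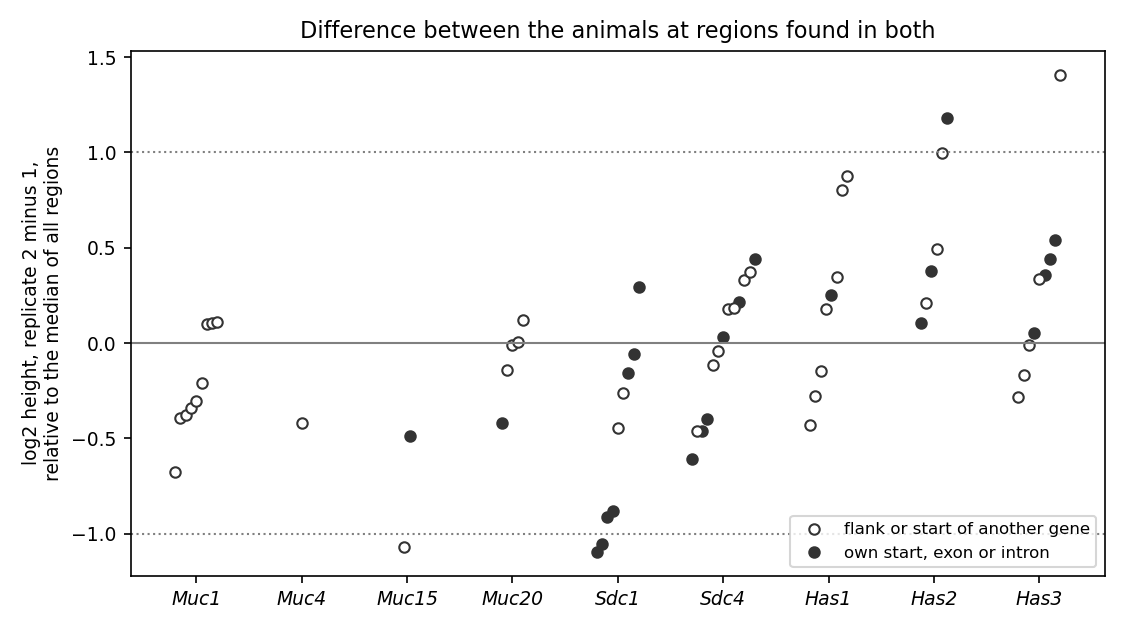
Log2 height of replicate 2 minus replicate 1, relative to the median of all regions (y axis), for each region found in both animals, by gene (x axis); filled points lie in the gene or at its starts, open points in the flanks or at other genes, and dotted lines mark a 2-fold difference. The Sdc1 points reach down to -1.09 and the Has2 points lie between 0.11 and 1.18.

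Starts of the 9 genes were also described by CpG content, which is known to accompany broadly active promoters. The share of open starts rose with it over all starts. The 3 open starts of Muc15 had ratios of 0.13, 0.11 and 0.17, lower than some closed starts of Muc1, Sdc4 and Muc4. Other closed starts of Muc1 and Muc4, down to 0.06, had still lower ratios. Over 300 bp around a start, the observed over expected CpG ratio ran from 0.06 at an inner Muc4 start to 0.89 at the third Has3 start. All 10 starts with a ratio of at least 0.5 were open: 6 of 6 between 0.5 and 0.75, where 72.2% of all starts were open, and 4 of 4 above, where 90.4% were. These belonged to Sdc1, Sdc4, Has2 and Has3. Of the 14 starts under 0.25 the 3 of Muc15 were open, where 8.33% of all starts were, and none of the 3 between 0.25 and 0.5 was, where 24.2% of all starts were. Muc1, Muc4, Muc20 and Has1 had starts of low ratio only, between 0.06 and 0.42. Starts of 1 gene share sequence and peaks and are not independent.

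**Figure D4:**
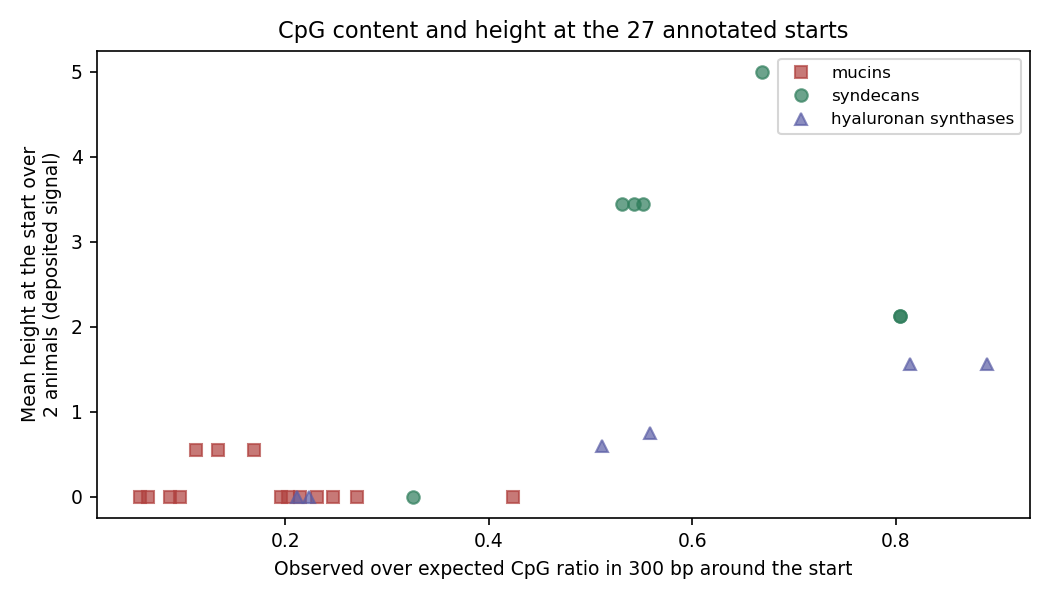
Mean start height over the 2 animals (y axis, deposited signal) against the observed over expected CpG ratio in 300 bp around each of the 27 annotated starts (x axis), by family. Starts of Sdc1, Sdc4, Has2 and Has3 with a ratio of at least 0.5 were open, and below that ratio the only open starts were those of Muc15.

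Footprints numbered 224 in replicate 1 and 222 in replicate 2 over the 9 domains. Of these 43.8% and 45.9% overlapped a footprint of the other animal, against 44.8% and 52.2% of all footprints. The most were at Sdc4 (55 and 62), followed by Sdc1 (38 and 31), Has1 (38 and 31) and Muc1 (31 and 46). Within 200 bp of a start, Sdc1 had 7 and 9 footprints, Sdc4 5 and 4, Has3 4 and 3, Muc15 2 and 1, Has2 0 and 2, and the 4 closed genes none. Footprints of both animals occurred within 200 bp of starts of Sdc1, Sdc4 and Has3, and not of Has2 or Muc15.

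CTCF matches were counted in 4 footprints of replicate 1 (1.79%) and 5 of replicate 2 (2.25%), against 1.68% and 1.77% of all footprints. The 4 that both animals shared flanked 3 of the genes and are printed here with the core match in capitals, on the strand of the match. The cores of the first and the last are the same letters.
Muc1 at -13.0 kb, minus strand, chr3:89216080-89216109: tcctatgtcCCACCAGGTGGCgcaagggag
Muc1 at -0.748 kb, plus strand, chr3:89228302-89228331: tcgcggtgaCCACTAGAGGGCaggcgtttc
Muc20 at -15.7 kb, plus strand, chr16:32813121-32813150: tctgcaataCCAGCAGATGGCgccaccagc
Has3 at 17.8 kb, plus strand, chr8:106887982-106888011: acaacagcgCCACCAGGTGGCaatttggag
The matches on either side of Mir92b upstream of Muc1 point in opposite directions. Matches are descriptions of the letters, and binding was not measured.

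In 150 bp around peak midpoints, ETS matches (CCGGAA) occurred in 14.8% and 9.88% of the 81 peaks of each animal, against 5.83% and 5.59% of all peaks, and GC boxes in 25.9% and 22.2%, against 16.8% and 16.0%. AP-1 matches (TGACTCA) occurred in 4.94% and 3.70%, against 7.83% and 5.92%. KLF CACCC boxes occurred in 9.88% and 14.8%, against 5.56% and 4.95%. The GRHL motif (AACCGGTT) was in none of the 81 peaks of either animal, against 0.149% and 0.114% of all peaks. GC box and KLF matches can overlap, and all motifs were sought on both strands. These shares are over few peaks, many of them at starts of neighbouring genes, and nothing particular to the 9 genes is read from them.

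The genes that build, supply, bind and cut the glycan layer were mostly open, as were protein-coding genes as a whole, and the other mucins were mostly not. Over 7 wider lists 81 of 102 genes had an open start in both animals (79.4%), against 63.0% of all protein-coding genes, and 17 had none in either. All 26 genes of heparan and chondroitin sulfate synthesis were open, led by Extl3 (9.80 ± 3.91, SD, n = 2), B3gat3 (8.81 ± 2.44) and Glce (8.63 ± 2.04), with Hs6st2 (0.407 ± 0.062) the lowest. All 11 genes of UDP-sugar supply were open as well, led by Ugdh (10.4 ± 5.6), which makes the glucuronic acid donor for hyaluronan and heparan sulfate, then Uap1 (10.4 ± 4.5) and Uxs1 (9.99 ± 3.92), with Gfpt2 (2.34 ± 0.79) the lowest.

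Of 13 other mucins only Cd164 (4.86 ± 0.71) and Podxl (1.81 ± 0.57) were open, and 10 had no open start in either animal, among them Muc2, Muc3, Muc3a and Muc5ac. The enzymes that attach and extend their sugars were open at 15 of 19, led by C1galt1 (9.59 ± 3.94), which adds the galactose of the core 1 chain, St3gal1 (8.01 ± 2.88) and C1galt1c1 (4.55 ± 2.17), the chaperone of C1galt1. Galnt5 (0.369 ± 0.042) was the lowest open one, and Gcnt3, B3gnt3 and St6galnac1 had no open start. Other syndecans and glypicans were open at 7 of 8, led by Gpc5 (4.55 ± 1.90), Sdc2 (3.47 ± 0.12) and Gpc2 (3.08 ± 1.01), with Gpc1 (0.927 ± 0.071) the lowest. The eighth, Sdc3, named after its values were seen, had a peak in replicate 1 only (0.782).

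Hyaluronan receptors and turnover genes were open at 13 of 16, led by Cemip2 (8.22 ± 2.33), Hmmr (5.17 ± 2.01) and Hyal3 (4.83 ± 2.40). Stab2 (0.439 ± 0.040) was the lowest open one, and Lyve1 and Spam1 had no open start. Syndecan adaptors and sheddases were open at 7 of 9, led by the proteases Adam10 (10.7 ± 5.1) and Adam17 (8.81 ± 2.81) and by Cask (3.99 ± 1.19), with Hpse (1.32 ± 0.35), the heparan sulfate cleaving enzyme, the lowest and Mmp7 and Mmp9 without an open start. The median start height of all 102 genes, closed ones at 0, was 2.94 and 2.31, against 1.82 and 1.49 over all protein-coding genes.

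**Figure D5:**
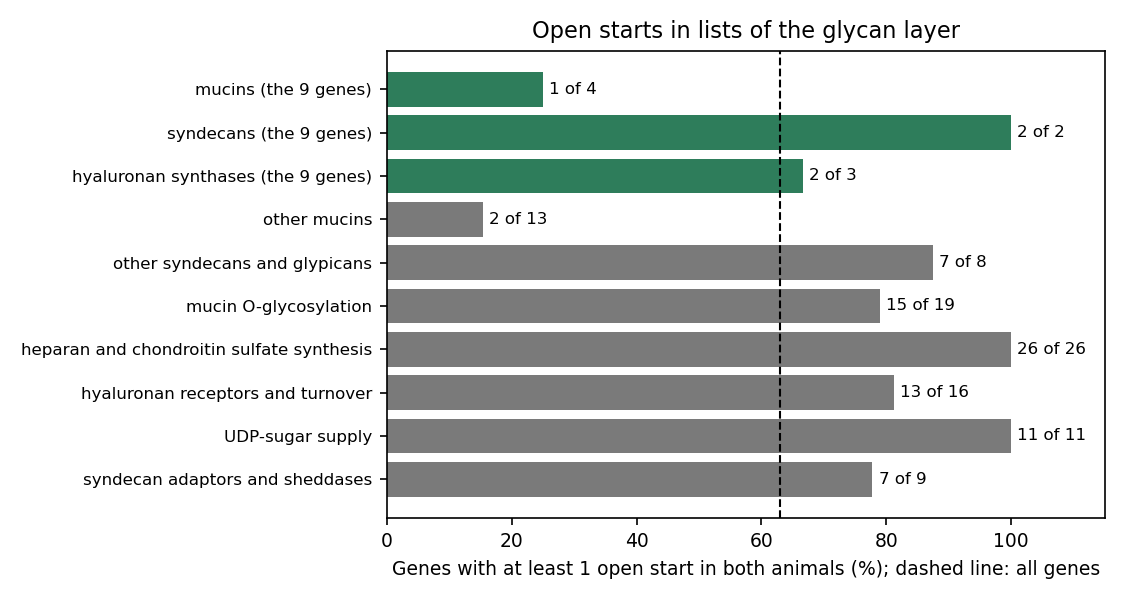
Share of genes with at least 1 open start in both animals (x axis, percent) in the 3 families of the 9 genes (green) and 7 wider lists (grey), with the number open of the number listed, and a dashed line at 63.0%, the share of all protein-coding genes. The mucin bars (1 of 4 and 2 of 13) end left of the line and all other bars right of it.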

How the data were processed

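DNase-seq peaks, footprints and local false discovery rates of 2 bladders were used as deposited, on mm10 according to the labels. As peak height the authors deposited a signal for each peak. The sources used here give neither its scaling nor the aligner and peak caller. Each height was a whole multiple of a step of 0.00789 (replicate 1) or 0.00849 (replicate 2), within 0.05 of a step. The authors deposited 2 columns of p-value type: false discovery rates for local cut rates, listed to 0.05, and for footprints a constant 0.01, which gives them no rank.

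The main list was the larger of the peak lists of an animal, and the smaller ones (73247 and 61717 peaks) an alternative. Starts and genes came from GENCODE M21, with every annotated start of a gene kept apart. Peaks of the 2 animals sharing at least 1 bp were merged into regions. A domain was the gene body with 20 kb on either side. Footprints were extended by 5 bp and 22 motifs were sought on both strands. The counting code was tested on simulated peaks and motifs. Python 3.11.15, numpy 2.4.6, pandas 2.3.3 and pysam 0.24.0 were used.

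With 1 group there was no test, and groups of 2 samples allow no search for outlying values. All 9 genes are named. Of each wider list, the 3 highest, the lowest open one and up to 4 genes with no open start are named, besides 8 control genes. The markers Lum, Actg2, Ptprc and Cd3e are named outside this rule, because they were at 0. The 9 genes, lists and motifs were chosen with earlier results of these data known. Of the listed symbols 3 had no match among protein-coding genes (Muc19, Muc21 and Tmem2).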

Additional observations from a re-analysis of the deposited data

How the results depend on the processing

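The number of open genes fell from 5 of 9 to 3 with the smaller peak list (Sdc1, Sdc4 and Has3), against 58.5% of all genes there. It was 4 when a peak had to cover the start base itself (51.9% of all genes), 6 with 1 kb on either side (66.8%), and 5 in each animal alone. The median start height over the 9 genes, 0.551, lies at a weak start and moved to 0.297 with the smaller list, to 0.297 at the start base and to 0.75 with 1 kb, and ranged from 0.391 to 0.592 when either animal was left out. The mean of 81 peaks in the domains fell to 52.0 and that of 223 footprints to 125.5 with flanks of 10 kb. Of the peaks, 79.6% overlapped one of the other animal, and 63.6% did when at least 50% of each peak had to be shared. Footprints holding a motif match fell from a mean of 45.5 to 23.5 without the 5 bp extension. Of 31 alternatives to these main values 22 stayed within their limits and 9 moved. For single genes the limit was the SD of the 2 animals, and 40 of 45 stayed within it. The exceptions were Has2 (0.297 to 0.75), Has3 at the start base (1.07) and Muc1 with 1 kb (4.42). Leaving out either animal cannot exceed that limit, and closed genes mostly stayed at 0, so this count is no measure of stability. No paired analysis was possible because the animals form 1 group. The precision rests on 2 animals, and the depth behind a listed peak is unknown.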
